A study of Mus musculus with 2 samples.

Results

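MHC class II and dendritic cell genes were followed here as a set of 10 genes, out of 31894 gene names on the array. The set holds the class II transactivator Ciita, the invariant chain Cd74, the peptide-binding chains H2-Aa, H2-Ab1 and H2-Eb1, the peptide-loading chains H2-DMa, H2-DMb1 and H2-Oa, and the dendritic cell genes Cd83 and Clec9a. Its members were taken by name, with earlier results of these data known, and each had 1 probe, printed as 1 spot. RNA was measured on 1-colour Agilent arrays in 2 C57BL/6 livers, 1 array each. The first liver was wild-type. The second came from a mouse labelled Alb-Cre;CAG-floxed neo-Snail. Alb-Cre expresses Cre recombinase in hepatocytes from the albumin promoter, and CAG is a strong, widely active promoter. Snail is a transcriptional repressor of epithelial genes. Per its title, the series concerns steatohepatitis and tumour formation after Snail was forced on in hepatocytes. The labels give neither the sex nor the age of the mice, nor whether the sampled tissue held tumour. There were no replicates, so no difference below has a test, and each describes these 2 livers only.

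MHC class II molecules are pairs of an alpha and a beta chain that show peptides from taken-up proteins to CD4+ T cells. Dendritic cells, B cells and macrophages carry them constitutively, and interferon gamma can induce them in other cells through the transactivator CIITA, which binds a complex of factors on the promoters of class II genes. The new chains are held by the invariant chain until the DM heterodimer exchanges its last fragment for a peptide, a step that the DO heterodimer restrains. In liver, hepatocytes normally carry little class II, while Kupffer cells, sinusoidal endothelial cells and dendritic cells carry it.

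The arrays carried the marks of liver, since all 8 hepatocyte markers listed, among them Alb, Ttr and Apoa1, were well above background on both. By the scanner software's call, 50.7% of spots were well above background for the wild-type liver and 54.0% for the other. Signals of the second array ran higher, with a 75th percentile of 302.1 against 232.7, and each array was divided by its own 75th percentile before any difference was taken. The Snai1 probe did not check the labels. Its signal was 23.2 in the wild-type liver and 22.3 in the second, a scaled log2 difference of -0.44, and whether the probe lies within the transgene is not given in the sources used here. The second array is therefore called the library labelled Snail.

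The class II and dendritic cell genes stood higher in the library labelled Snail. Of the 10 members, 9 were measured on both arrays, and all 9 had a log2 difference above 0, against 47.4% of the 15466 genes measured. Cd83 alone was at least 2-fold higher, in an array where 3.96% of genes were. At least 1.5-fold was reached by 7 members, against 10.0% of genes. That count, recomputed after the data had been seen, was 3 with the normexp background correction, where 5.13% of genes reached it, and 5 with median scaling, where 8.55% did. No member was at least 2-fold lower, against 6.34% of genes. Because the members were chosen with earlier results of these data known, these counts beside all genes are a description. The median log2 difference of the members was 0.66, a 1.58-fold difference, and that of all genes was -0.03. The members ranged from 0.37 for H2-Ab1 to 1.34 for Cd83, while the first quartile of all genes lay at -0.34 and the third at 0.26. A liver sample is a mixture, and in such bulk RNA more cells of a type and more RNA per cell cannot be told apart.

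**Figure D1:**
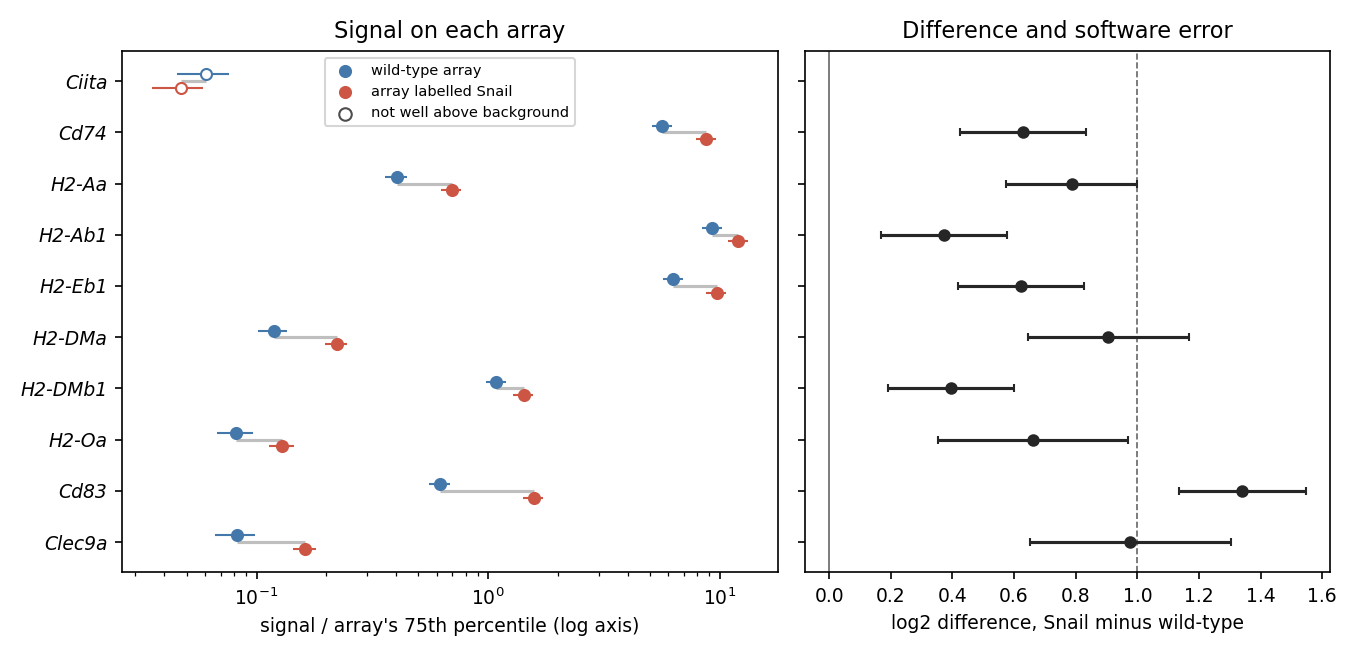
Left, signal of each member's probe divided by its array's 75th percentile, on a log axis, with blue for the wild-type array and red for the array labelled Snail; horizontal bars are the scanner software's error of that 1 spot, and open circles were not well above background. Right, log2 difference (Snail minus wild-type) with the error carried over from both spots and a dashed line at 2-fold; the 9 measured members lie between 0.37 and 1.34, and Ciita has no difference.

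The error in these values is technical. The scanner software gives each spot an error, and carried into the log2 difference it came to 0.20 to 0.33 for the measured members. All 9 differences were larger than that error and 7 were larger than 2 such errors, the exceptions being H2-Ab1 and H2-DMb1. Probes printed at least 5 times gave a second scale, the SD over the spots of a probe in their log2 difference. Its median was 0.19 over 64 probes with signals under 100, 0.07 over 110 probes from 100 to 1000 and 0.04 over 65 brighter probes. All 9 members differed by more than 2 of these SDs. Neither scale holds any difference between animals.

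The peptide-binding chains and the invariant chain stood higher in the library labelled Snail by 1.30 to 1.72-fold. The median log2 difference of these 4 genes was 0.63. H2-Aa encodes the alpha chain of the I-A molecule. Its signal was 93.8 ± 10.1 (software error) in the wild-type liver and 210.2 ± 21.3 in the other, which after scaling is 1.72-fold (log2 difference 0.79 ± 0.21). H2-Ab1, the beta chain that pairs with it, read 2156 ± 216 and 3628 ± 363, or 1.30-fold (0.37 ± 0.20). Its difference was the smallest of the set and 18.3% of all genes measured exceeded it, against 6.04% for H2-Aa. Both I-A chains thus stood higher in the library labelled Snail. With normexp, a background correction that models background jointly with signal and adds an offset of 50, H2-Aa was at 0.44 and H2-Ab1 at 0.43. The added offset by itself makes the ratio between 2 dim signals smaller. H2-Eb1, the beta chain of the I-E molecule, read 1466 ± 147 and 2930 ± 293, or 1.54-fold (0.62 ± 0.20). Cd74, the invariant chain that escorts the new pairs, read 1313 ± 131 and 2637 ± 264, or 1.55-fold (0.63 ± 0.20). H2-Eb1 and Cd74 were exceeded by 9.20% and 9.03% of genes.

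What these spots read can be seen from the probes. All are 60 bases long, and positions are on the mouse build mm9 as the files annotate them. H2-Aa was read on the minus strand of chr17:34421285-34421344, H2-Ab1 at chr17:34406296-34406355 and H2-Eb1 at chr17:34453075-34453134. Exon and UTR annotation of that build was not used here. The whole H2-Aa probe is shown because it is the only reading of that chain. For H2-Ab1 and H2-Eb1 the 30 bases around the polyadenylation hexamer AATAAA are shown, with the hexamer in capitals. It begins 22 bases before the 3′ end of the H2-Ab1 probe and 11 bases before that of H2-Eb1, so both probes hold the letters that commonly precede the end of an mRNA.
H2-Aa: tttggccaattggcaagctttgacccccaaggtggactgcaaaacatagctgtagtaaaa
H2-Ab1: acctagattacaAATAAAcgagactcagac
H2-Eb1: cttttttacatttttctcaAATAAAcaaat

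H2-Ea would supply the alpha chain of I-E, but C57BL/6 mice carry a defective copy and make no I-E on the cell surface. Its probe gave 3.33 in the wild-type liver and 3.30 in the other, not well above background on either array. The H2-Ea probe, at chr17:34481469-34481528 of mm9, is shown as the chain gene without a reading in either liver. The RefSeq table of GRCm38.p6 lists the gene as a transcribed pseudogene.
H2-Ea: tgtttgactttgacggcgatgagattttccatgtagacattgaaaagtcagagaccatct

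The genes that load class II molecules with peptide stood higher by 1.32 to 1.87-fold, and the median log2 difference of these 3 genes was 0.66. H2-DMa, the alpha chain of the DM peptide editor, read 27.6 ± 4.01 in the wild-type liver and 67.2 ± 7.27 in the library labelled Snail, or 1.87-fold (0.91 ± 0.26). H2-DMb1, a beta chain of DM, read 251.9 ± 25.3 and 430.2 ± 43.1, or 1.32-fold (0.40 ± 0.20). H2-Oa, the alpha chain of the DO inhibitor, read 19.0 ± 3.34 and 39.1 ± 4.70, or 1.58-fold (0.66 ± 0.31). Both the editor and a chain of its inhibitor were thus higher in the same liver. The H2-DMa and H2-Oa signals are dim, near the lowest signal counted as well above background, which was 13.8 for the wild-type liver and 12.9 for the other. Normexp, with its added offset, moved them most: H2-DMa was 0.22 and H2-Oa 0.10, while H2-DMb1 was 0.38.

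H2-Ob, the beta chain that pairs with H2-Oa in DO, was not well above background in the wild-type liver. Its brighter probe read 10.3 there and 38.8 in the library labelled Snail, at least 2.16-fold higher. That bound sets the second array against the lowest signal well above background on the first. The second H2-Ob probe read 10.5 and 24.7. H2-DMb2, the other DM beta chain, and H2-Eb2 had signals of 3.16 to 3.38 and were below background on both arrays. The H2-DMa probe covers 564 bases of genome (chr17:34274300-34274863, mm9) with its 60 bases, so it joins stretches that are apart in the genome. Those of H2-DMb1 (chr17:34297109-34297168) and H2-Oa (chr17:34232033-34232092) lie in 1 piece. The letters of these readings follow, whole for H2-DMa and H2-Oa and as 30 bases around AATAAA, in capitals, for H2-DMb1 and the brighter H2-Ob probe.
H2-DMa: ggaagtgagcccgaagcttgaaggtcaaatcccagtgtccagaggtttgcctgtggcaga
H2-DMb1: tgatcactaagaAATAAActggtggacttt
H2-Oa: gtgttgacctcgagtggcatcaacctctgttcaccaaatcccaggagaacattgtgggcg
H2-Ob: ttctacaatgtcAATAAAgaacatccactg

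Ciita, the transactivator on which class II transcription depends, gave no reading of its own level. Its signal was 14.1 ± 3.57 in the wild-type liver and 14.2 ± 3.53 in the library labelled Snail, not well above background on either array, so it has no fold. The probe holds the unit AAAAC 8 times and is 65% A, and how well it reads Ciita was not tested.

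The other factors of class II transcription lay on both sides of 0. Of 14 genes listed, 11 were measured and 7 of these were above 0, with a median of 0.09. None of the 11 was at least 2-fold higher or lower. CIITA acts through the RFX complex, and of its subunits Rfxank had a log2 difference of 0.09 and Rfxap one of -0.58, while Rfx5 was below background. Of the NF-Y complex, which binds CCAAT boxes, Nfyb was at -0.97 and Nfyc at 0.26. Nfya cleared background in the library labelled Snail but not in the wild-type liver, with an observed ratio of 2.16. Creb1, which binds beside RFX, was at 0.87 but at -0.02 with normexp. Interferon gamma signals through its receptor, the kinases Jak1 and Jak2 and factors such as Irf1. The receptor chains Ifngr1 and Ifngr2 were at 0.09 and 0.56 and Jak1 at 0.21, while Irf1, at -0.43, was lower in the library labelled Snail. Spi1, a myeloid factor also known as PU.1, was at least 1.48-fold higher.

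Class II promoters are known for an X box, bound by RFX, and a CCAAT box, bound by NF-Y, and their letters were looked for. RefSeq promoters of GRCm38.p6, from 250 bases before to 50 after a start, were matched for 6 of the 10 members (H2-Aa, H2-Eb1, H2-DMa, H2-DMb1, H2-Oa and Clec9a) and for 3 related chains (H2-Eb2, H2-Ob and H2-DMb2). All 8 class II chain genes among them held CCAAT on either strand, as did 37.4% of the 32851 promoters in the table. The letters ACNGATG, the end of a usual X box, were found on either strand in 6 of the 8 and in 9.85% of all promoters. A pair was also searched on the transcribed strand before the start, GNAAC and then, 25 to 45 bases later, ATTGG, which is CCAAT read on the other strand. It was found in 6 of the 8 and in 1.45% of all promoters. This pair was written down after these promoters had been read, so its share among them is a description. The distance from the first base of GNAAC to that of ATTGG was 30 to 33 bases in all 6. ACNGATG overlaps the GNAAC of the pair in H2-Eb1, H2-DMb1 and H2-Eb2, begins 137 bases before the start in H2-Oa, apart from the pair, and lies on the other strand in H2-Aa. The windows are shown with both parts of the pair in capitals, each 5′ to 3′ on the transcribed strand, which for H2-Aa is the minus strand.
H2-Aa: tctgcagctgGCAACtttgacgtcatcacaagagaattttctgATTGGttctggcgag
H2-Eb1: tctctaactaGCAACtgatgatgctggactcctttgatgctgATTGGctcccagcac
H2-DMb1: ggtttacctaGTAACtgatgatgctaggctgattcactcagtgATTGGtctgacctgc
H2-Oa: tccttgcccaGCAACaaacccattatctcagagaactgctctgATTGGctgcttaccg
H2-Ob: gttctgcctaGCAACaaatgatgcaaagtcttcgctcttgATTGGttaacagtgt
H2-Eb2: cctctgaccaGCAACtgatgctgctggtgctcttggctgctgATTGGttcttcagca

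These windows lie on GRCm38.p6 at chr17:34287857-34287914 for H2-Aa, chr17:34305766-34305822 for H2-Eb1, chr17:34153087-34153144 for H2-DMb1 and chr17:34092293-34092350 for H2-Oa. Those of H2-Ob and H2-Eb2 lie at chr17:34238808-34238862 and chr17:34325533-34325589. The GNAAC part begins 81 bases before the start in H2-Aa, 91 in H2-Eb1, 94 in H2-DMb1, 76 in H2-Oa, 87 in H2-Ob and 132 in H2-Eb2. Genes with the pair were found both among the measured members, at log2 differences of 0.40 to 0.79, and in H2-Eb2, which was below background. H2-DMa, at 0.91, held no pair in either of its 2 promoter entries, nor did H2-DMb2. The interferon-activated letters TTCNNNGAA were found in H2-DMb2 alone of these genes, and in 8.30% of all promoters. Clec9a, which is no class II gene, held none of these letters.

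Cd83 had the largest difference of the set. It encodes a surface protein of mature dendritic cells and activated lymphocytes that keeps class II molecules on the membrane. Its signal, read at chr13:43898276-43898335 of mm9, was 144.3 ± 14.7 in the wild-type liver and 474.7 ± 47.5 in the library labelled Snail, or 2.53-fold (1.34 ± 0.21). Only 2.04% of the genes measured had a larger difference. It remained past 2-fold under every alternative that was computed, with its lowest value under normexp and its highest, 1.41, when arrays were scaled on spots well above background on both.

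Among other genes of costimulation and dendritic cell maturation, 8 of 13 were measured. Their median was 0.29 (-0.12 with a stricter filter, a signal of at least 100 on both arrays), and 3 of them reached 2-fold on the higher side and none on the lower. Icosl, the ligand of the T cell costimulator ICOS, read 20.1 and 160.0, or 6.13-fold. Relb, an NF-kappaB subunit of mature dendritic cells, was 3.50-fold higher, and Ccr7, the receptor that guides them to lymph nodes, 2.33-fold. All 3 are dim in the wild-type liver, and with normexp their log2 differences were 1.03, 0.76 and 0.34. The classical costimulators were nearer to the middle of all genes: Cd86 was at 0.31, Cd80 at -0.07 and Cd40 at least 1.06-fold higher. The chemokine gene Ccl17 was at least 1.92-fold lower, and Il12b and Ccl22 were below background on both arrays.

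Clec9a, a receptor for dead cell remains on cross-presenting dendritic cells (cDC1), was 1.97-fold higher. Its signal, at chr6:129372492-129372551 of mm9, was 19.2 ± 3.72 in the wild-type liver and 49.0 ± 5.78 in the library labelled Snail (0.98 ± 0.33), and 4.13% of genes had a larger difference. Both signals are dim. It passed 2-fold when arrays were scaled on the spots well above background on both (1.05). With normexp it was at 0.10, so the size of its difference depends on the background correction and its added offset. Of 10 other cDC1 markers, 5 were measured and all 5 were above 0, at 0.06 to 0.60 with a median of 0.40. They include Wdfy4 at 0.60 (as low as 0.06 under the alternatives), Cadm1 at 0.46, Batf3 at 0.40 and Irf8 at 0.30. The defining markers Xcr1, Itgae and Tlr3, with Ly75, were below background on both arrays, and Btla was at least 1.15-fold higher. Of 6 pan-dendritic genes, 5 were measured and 2 of these were above 0. Their median was -0.03 (-0.63 to 0.05 under the alternatives). Itgax, which encodes CD11c, was 3.54-fold higher (0.52 with normexp) and Kmo was at 0.40. The Kmo probes read 859 and 8417 in the wild-type liver, where Itgax read 18.6. Which cells gave the Kmo signal was not tested. Zbtb46 was at -0.03, Cd207 was at -0.63 and Flt3 was below background. Dpp4, also made by hepatocytes, was at -1.91.

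Genes of class II peptide loading and turnover, which are mostly proteases of the endosome, were measured for 11 of 11. None was at least 2-fold apart, and their median was 0.19. Ctss, the cathepsin that trims the invariant chain in dendritic cells and B cells, was at 0.19, and Lgmn, an asparagine endopeptidase, at 0.68. Ctsl was at -0.95. Sppl2a, which removes the last membrane stub of the invariant chain, was at 0.41, and Marchf1, a ligase that sends class II to degradation, at 0.38.

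Class I presentation went the other way from class II in these livers. All 13 listed genes were measured, 11 were below 0, none was at least 2-fold apart and the median was -0.35, which stayed below 0 under every alternative (-0.41 to -0.27). The immunoproteasome subunits Psmb9, Psmb8 and Psmb10 were at -0.99, -0.71 and -0.60, and the peptide transporter genes Tap1 and Tap2 at -0.61 and -0.53. B2m, the light chain of class I, was at -0.31. The heavy chains H2-K1 and H2-D1 were at -0.16 and 0.01, and each changed sign under another scaling, H2-K1 with quantile, loess and the authors' table and H2-D1 with median scaling. In the values as reported, each of the 9 members lay above the highest class I gene, which was Tapbp at 0.15.

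Class II and class I genes with unlike readings lie side by side. Between the H2-Oa and H2-Ea probes, 249.5 kb of mm9 chromosome 17, lay 23 probes, of which 13 were measured on both arrays, for 12 genes. This stretch was chosen after its values had been seen. The 6 class II members in it were above 0, and so were Brd2, a chromatin reader, and LOC641240. The 4 genes below 0 were Psmb9, Tap1, Psmb8 and Tap2, which lie together between H2-DMb1 and H2-Ab1. The LOC641240 probe begins 9 bases from the H2-Ab1 probe and read 1929 and 3479, a log2 difference of 0.47 beside 0.37, so these readings overlap and are not independent. Brd2 had 2 probes, at 0.80 and 0.37.

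**Figure D2:**
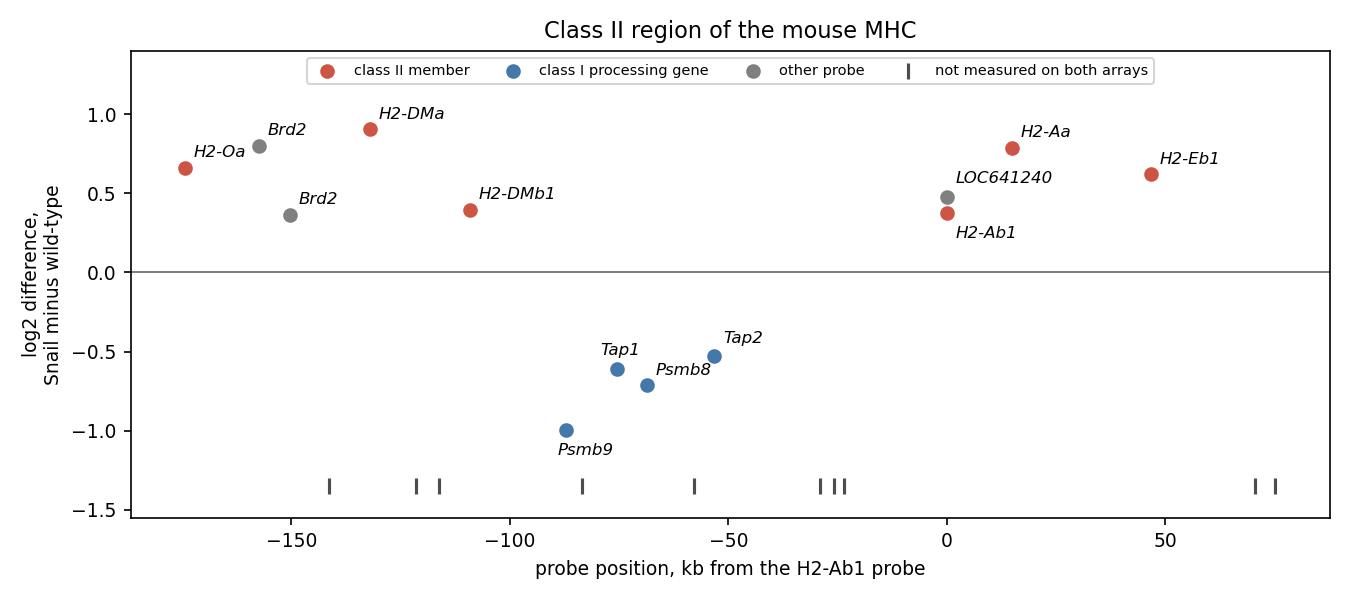
Each point is a probe between H2-Oa and H2-Ea, placed by its distance in kb from the H2-Ab1 probe and by its log2 difference (Snail minus wild-type); red points are class II members, blue points class I processing genes, grey points other probes, and ticks at the foot probes not measured on both arrays. The 4 blue points, from -0.99 to -0.53, sit between red points at 0.37 to 0.91.

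Markers of leukocytes were also mostly higher in the library labelled Snail, with a smaller median. Of 10 pan-leukocyte genes, 9 were measured and 8 were above 0, with a median of 0.34, and their summed scaled signal went from 24.5 to 28.2, a ratio of 1.15. For the 9 measured members the sum went from 23.6 to 34.6, a ratio of 1.47. Ptprc, the common leukocyte antigen CD45, was at 0.33 but at -0.02 with normexp, and Coro1a and Laptm5 were at 0.59 and 0.38. Macrophage and Kupffer cell markers had a median of 0.13 over 13 of 14 genes, with sums of 105.1 and 125.6. Adgre1, Clec4f and Vsig4 were at 0.00, 0.15 and 0.07, while the scavenger receptor Marco was 2.83-fold higher. The part of these cells in the members' differences was not tested.

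B cells also carry class II, and 5 of their 10 markers were measured, with a median of 0.18 (0.03 to 0.33 under the alternatives) and sums of 2.38 and 2.88. Ms4a1 was 2.37-fold higher, but with normexp its log2 difference was 0.38. Cd79a was at -0.77, or -0.22 with normexp, and Cd79b at 0.48. The B cell factor Pax5 was below background on both arrays, as were Blk and Fcer2a. Of the cDC2 markers 2 of 7 were measured, Sirpa at 1.11 and Mgl2 at -0.40, and Cd209a was below background. Of the monocyte markers 2 of 6 were measured, with a median of -0.06, and Cx3cr1 was at least 3.60-fold higher. The plasmacytoid dendritic markers had a median of 0.01 over 5 of 7, with Bst2 at -1.40.

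Other cell types of liver were spread to both sides. Neutrophil markers had a median of 0.92 over 5 of 7 genes, led by S100a8 at 1.99 and S100a9 at 1.57. The members' median was 0.66, and with the stricter filter the neutrophil median was 0.51 and that of the members 0.62. For T and NK cells the median was 0.19 over 7 of 12 markers. It changed sign with normexp (-0.06) and the stricter filter (-0.27). Cd4 was 2.57-fold lower on the brighter of its 2 probes. The other Cd4 probe, printed as 10 spots, read 7.18 and 10.0 and was below background on both arrays. The summed signal of the measured T and NK markers, the brighter Cd4 probe among them, had a ratio of 0.69. For sinusoidal endothelium the median was 0.02 over 7 of 7, with 4 above 0 and 3 below. Lyve1 had the largest difference of these, 1.99 (as low as 1.32 under the alternatives). Stellate cell markers lay at -0.85 over 5 of 6. Hepatocyte markers lay at -0.64 over 8 of 8, with all 8 below 0, but at -0.16 with quantile normalization and -0.15 in the authors' deposited table, where 3 of the 8 were above 0. Of the cholangiocyte markers 2 of 5 were measured, with a median of 1.06, or 0.45 with normexp, and Krt19, Krt7 and Epcam were below background.

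**Figure D3:**
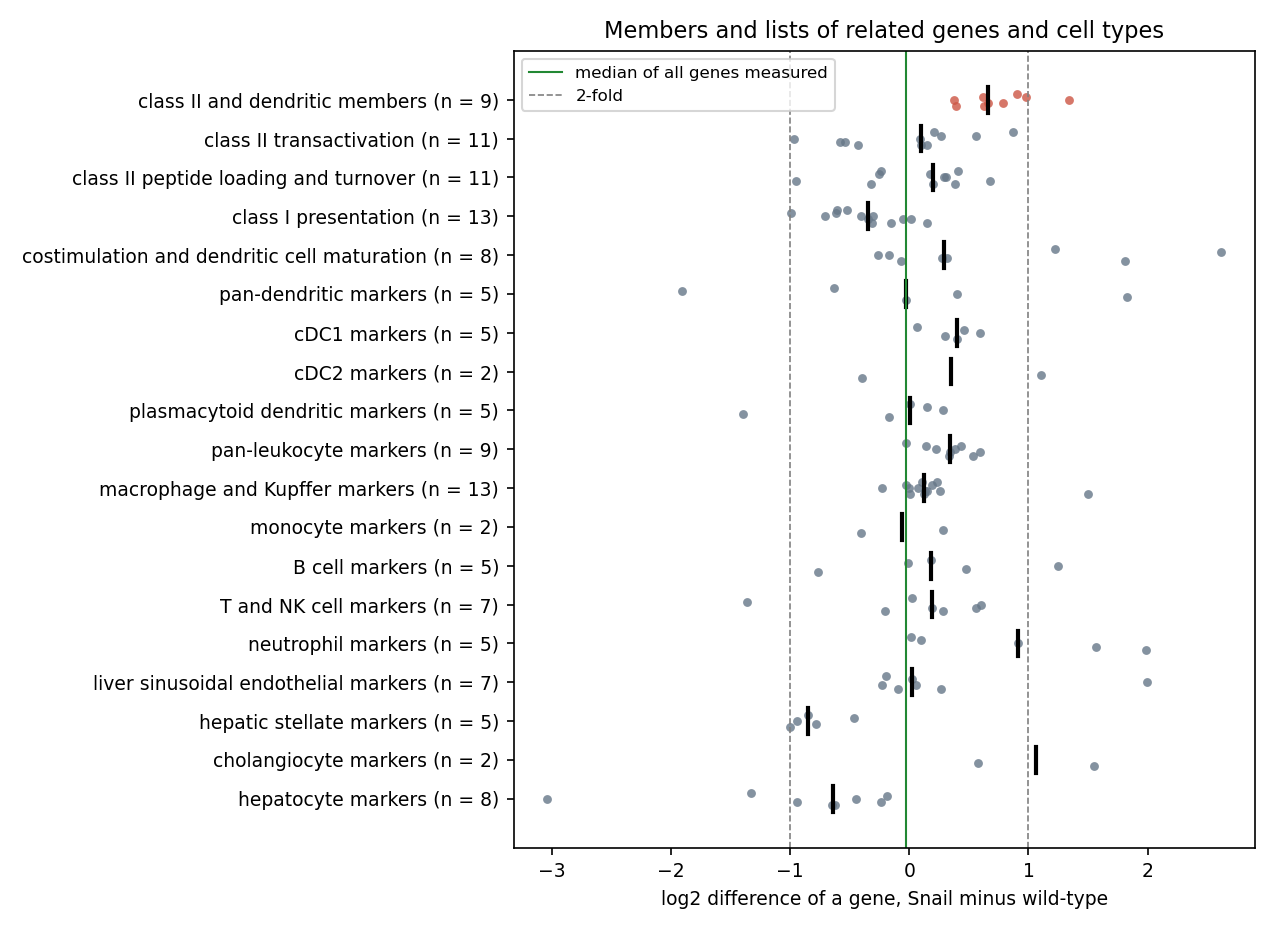
Each point is the log2 difference (Snail minus wild-type) of 1 gene measured on both arrays, in rows for the members (red) and for lists of related genes and cell type markers (grey); black ticks are row medians, the green line is the median of all genes measured (-0.03) and dashed lines mark 2-fold. The members lie wholly to the right of 0 with a median of 0.66, and class I presentation has a median of -0.35.

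The members stood higher among dim and bright probes alike, with each gene placed by the geometric mean of its 2 signals. The 3 members with signals under 100, H2-DMa, H2-Oa and Clec9a, had a median of 0.91 where all 4637 such genes had one of 0.00. The 3 from 100 to 1000, H2-Aa, H2-DMb1 and Cd83, had a median of 0.79 beside 0.00 over 6440 genes. The 3 above 1000, Cd74, H2-Ab1 and H2-Eb1, had a median of 0.62 beside -0.10 over 4389 genes. Every value of the 9 measured members under 10 other processing choices, 86 in all, was above 0. Each member has 1 unflagged spot. The stricter filter, no filter, kept outliers and the brightest probe could therefore only repeat a reported value or drop a member. Median scaling and scaling on spots well above background on both arrays moved all members by the same amount. They put H2-Ab1, the lowest member, at 0.31 and 0.45, so they could not change a sign. The authors' table nearly repeats quantile normalization, with H2-Ab1 at 0.49 and 0.50. In the value table that the authors deposited, which follows quantile normalization, Cd83 went from 163.1 to 423.6 and H2-Aa from 107.3 to 185.6. The size was less firm for dimmer members, as the values with normexp show for H2-Aa, H2-DMa, H2-Oa and Clec9a.

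**Figure D4:**
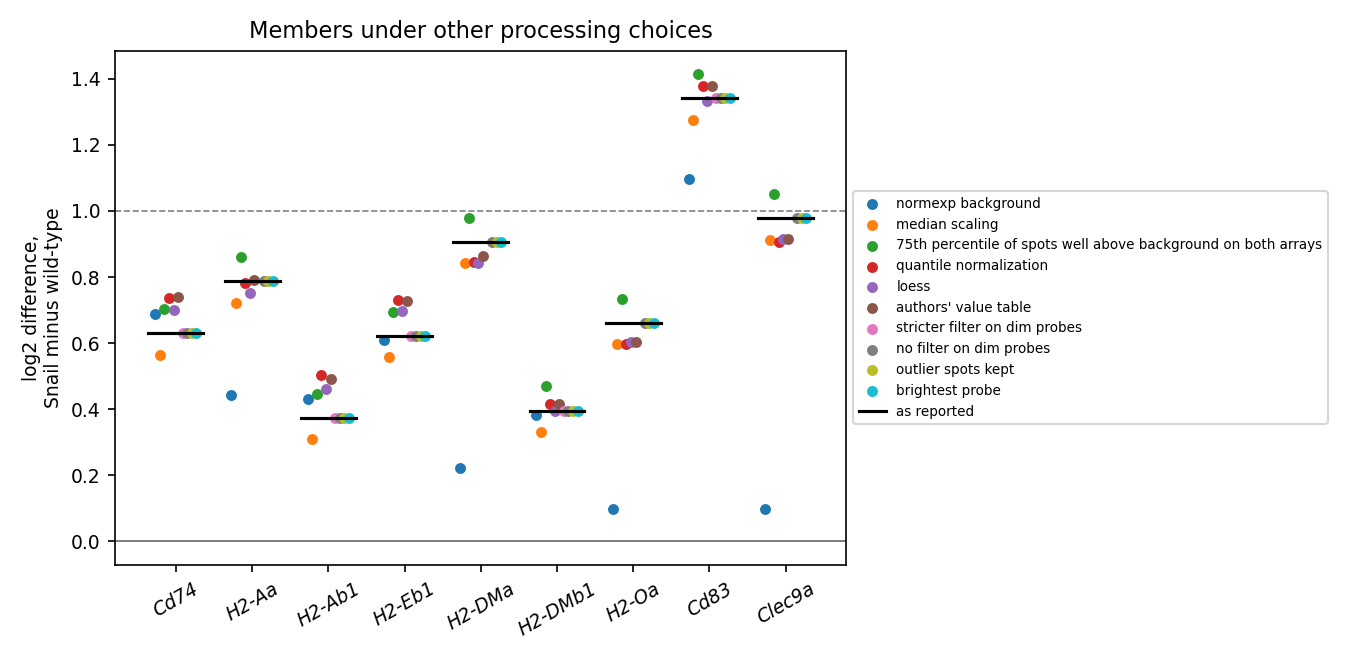
Log2 difference (Snail minus wild-type) of each measured member as reported (black lines) and under 10 other processing choices (coloured points), with a dashed line at 2-fold. All points lie above 0; Cd83 stays above 2-fold, and the normexp values of H2-DMa, H2-Oa and Clec9a lie between 0.10 and 0.22.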

How the data were processed

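Total RNA of 1 liver per genotype was labelled with Cy3, per the labels' protocols. The authors deposited the scanner tables, which the submitters' processing notes credit to Agilent Feature Extraction 9.5.1.1. Per the file headers, the intensity values had background subtracted on each array, with no scaling between arrays. Beside them the authors deposited a table of processed values, 1 per probe and array. Neither its scale nor its centring is stated in the sources used here. Compared with scanner values it was linear (correlation of log2 values 1.00 with the own array), and both columns had a median of 17.3. Its direction could be read from this match.

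From the deposited intensity values, the processed signal was divided by the 75th percentile of the 43020 non-control spots on its array and put on the log2 scale, leaving out 287 outlier spots. No spot was saturated. A gene is the mean over its probes well above background on both arrays. Where only 1 array was, the scaled signal of the bright array was divided by a floor from the dim array, the lowest signal it called well above background or the probe's own if higher, written as at least N-fold, or as an observed ratio where the own signal was the higher. Names came from the files or, for 26055 probes (66.1% of 39422), through RefSeq accessions of GRCm38.p6. Fold rules of 2 and 1.5 stand in for tests. With 1 array per group there are no p-values, and precision is limited by the number of arrays. Python 3.11.15 with pandas 2.3.3 was used, and R 4.3.3 with limma 3.58.1 for normexp. The script was tested on simulated data.

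The members and the 19 lists were chosen with earlier results of these data known. Genes named are every member and, from each list, the 3 largest differences, the first 3 genes and those with only a bound, and not all of them are printed; some items are not reported here. Other genes named, such as Cd86 or Irf8, were chosen for their role after values were seen. Alternatives were normexp background, median scaling, the 75th percentile of spots well above background on both arrays, quantile and loess normalization, the authors' table, a stricter filter (signal of 100 on both arrays) or none, outliers kept, the brightest probe and a 1.5-fold threshold. The 1.5-fold count under each alternative was added after seeing the data.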

Additional observations from a re-analysis of the deposited data

How the results depend on the processing

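The members' median log2 difference, 0.66, was 0.43 with normexp and 0.74 with the authors' value table. Scaling on the 75th percentile of spots well above background on both arrays put 2 members past 2-fold, Cd83 and Clec9a, and a 1.5-fold threshold counted 7. No alternative counted a member at least 2-fold lower. Of 86 alternative values of single members, 61 moved by less than the technical SD, 25 by more, and none changed sign. The 61 include values that could not move, those of the stricter filter, no filter, outliers kept and the brightest probe. Median scaling and scaling on spots well above background on both arrays shift all members alike, by too little to change a sign. The stricter filter left 5 members, with a median of 0.62. Without a filter all 10 entered with a median of 0.65, Ciita stood at -0.37, and the median of all genes was -0.47. With normexp, the share of genes past 2-fold was 1.92% on the higher and 3.70% on the lower side, against 3.96% and 6.34%. Members with signals under 100 lie near background, which limits the size of their differences. No paired analysis was possible because each group has 1 array, and for the same reason no replicate could be left out.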
